A study of Mus musculus with 2 samples.

Results

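The antibody variable (V) genes are the subject here: all 348 genes whose symbols begin with Ighv (185, heavy chain), Igkv (160, kappa light chain) or Iglv (3, lambda light chain), among the 31053 genes of the deposited tables. They were read in the droplet barcodes that held at least 2000 UMIs (unique molecular identifiers, each tagging 1 RNA molecule), had at most 20% of UMIs from mitochondrial genes and had at least 1 UMI of Cd79a, a signalling chain of the B cell receptor, or Mzb1, an endoplasmic reticulum protein of antibody-secreting cells. This rule selected 1782 of 7038 barcodes in the ApcMin library and 1884 of 7399 in the VApcMinL library. All 348 identifiers were found in GENCODE vM21 on GRCm38, which lists 218 as genes and 130 as pseudogenes, and 207 had at least 1 UMI in the selected cells.

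A B cell builds its antibody by joining 1 V gene to short D and J segments at the heavy chain locus, and 1 V gene to a J segment at a light chain locus, so each cell normally carries 1 productive heavy and 1 productive light V gene. The daughters of a B cell keep that choice. Plasma cells, the end stage of the lineage, devote much of their RNA to the antibody, and in the gut wall most of them make IgA, the isotype that is carried across the epithelium into the lumen. V gene RNA can therefore be read as a label of the cell's receptor. The D and J segments and the junction were not readable here: the 14 listed J genes had 0 UMIs, so a shared V gene pair is not a shared clone.

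Both mouse groups were C57BL/6 and carried ApcMin/+, a germline Apc allele that causes intestinal adenomas. The ApcMin mice had the genotype ApcMin/+;Lef1 +/+. The VApcMinL mice had the genotype ApcMin/+;Lef1 fl/fl; Villin-Cre, in which a Cre driven by the Villin promoter removes Lef1, a nuclear partner of β-catenin, in the intestinal epithelium. Per the paper, the Lef1 fl/fl line came from a mix of C57BL/6 with another strain and was backcrossed to C57BL/6 before use. Whether remnants of that strain bear on V gene usage was not tested. Lamina propria cells of the intestine were taken at 11 weeks of age per the labels, and DAPI-Ter119-Epcam-CD45- cells were sorted. Each genotype has 1 library from a droplet 3′ RNA-seq kit, and the number of mice behind it is not given. Each genotype is thus a single sample, so differences between them have no replicate check, no test was run, and genotype, mouse, sort and library cannot be told apart. Brackets hold 95% intervals for counting error alone, Clopper-Pearson for shares and Poisson for CPM (UMIs of a gene or locus per 1000000 UMIs of the cells).

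The libraries held 93203061 (ApcMin) and 101609269 (VApcMinL) UMIs, and the selected cells had medians of 6350.5 and 5289.5 UMIs. Clusters of the selected cells, made without any antibody gene, gave plasma cell-like cells (clusters 1 and 7 of ApcMin with 536 cells, cluster 0 of VApcMinL with 685) and B cell-like cells (658 and 353). Ptprc, the gene of the CD45 protein that the sort removed, had a UMI in 94.98% and 94.6% of B cell-like cells and in 14.9% and 11.2% of plasma cell-like cells. Epcam, the epithelial marker that the sort also removed, had a UMI in 17.7% and 22.2% of plasma cell-like cells, and its part in the results was not tested. The highest summed folds of ApcMin cluster 1 belonged to epithelial genes such as Fabp1, whereas Jchain and Mzb1 led it by the mean log level per cell. Lef1 had 63 and 57 UMIs in all selected cells. No selected barcode occurred in both libraries, against 25 shared among all barcodes of at least 1000 UMIs.

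The reference sequence of the V genes that the results turn on is given first, so that they can be told apart. Each is the last 300 or 298 bases of the coding V exon (exon 2) in GENCODE vM21, written 5′ to 3′ on the coding strand, with the in-frame cysteine codon nearest the junction in capitals. The first 4 form the largest heavy and kappa pairs of VApcMinL, the next 4 those of ApcMin, and Iglv1 is the lambda gene described further on.
Ighv1-19: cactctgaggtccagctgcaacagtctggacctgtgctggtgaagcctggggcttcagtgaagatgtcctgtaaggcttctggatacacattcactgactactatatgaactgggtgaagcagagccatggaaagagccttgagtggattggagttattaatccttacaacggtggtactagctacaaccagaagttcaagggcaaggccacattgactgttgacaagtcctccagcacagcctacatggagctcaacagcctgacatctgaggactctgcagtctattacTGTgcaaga
Igkv6-23: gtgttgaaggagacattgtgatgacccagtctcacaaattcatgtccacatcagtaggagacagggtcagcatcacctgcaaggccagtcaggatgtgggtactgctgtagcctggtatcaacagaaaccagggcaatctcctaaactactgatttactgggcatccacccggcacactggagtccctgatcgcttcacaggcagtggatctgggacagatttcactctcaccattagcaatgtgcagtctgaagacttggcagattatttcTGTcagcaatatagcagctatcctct
Ighv10-3: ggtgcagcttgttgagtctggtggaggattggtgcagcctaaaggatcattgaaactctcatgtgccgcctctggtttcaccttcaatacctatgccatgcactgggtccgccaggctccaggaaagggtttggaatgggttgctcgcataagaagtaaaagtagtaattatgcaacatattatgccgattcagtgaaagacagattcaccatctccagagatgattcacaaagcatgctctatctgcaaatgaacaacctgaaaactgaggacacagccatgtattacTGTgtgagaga
Igkv1-88: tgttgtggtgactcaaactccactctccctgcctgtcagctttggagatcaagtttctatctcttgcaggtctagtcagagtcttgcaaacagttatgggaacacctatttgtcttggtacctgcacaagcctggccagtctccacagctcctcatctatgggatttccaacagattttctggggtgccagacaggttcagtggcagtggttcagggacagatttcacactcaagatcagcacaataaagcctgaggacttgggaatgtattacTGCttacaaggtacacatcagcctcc
Ighv3-6: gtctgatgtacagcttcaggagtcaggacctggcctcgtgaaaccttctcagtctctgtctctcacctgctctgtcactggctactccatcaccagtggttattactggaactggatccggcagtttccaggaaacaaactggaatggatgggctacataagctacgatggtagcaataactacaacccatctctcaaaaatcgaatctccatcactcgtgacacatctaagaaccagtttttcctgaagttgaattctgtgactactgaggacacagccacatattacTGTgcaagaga
Igkv5-48: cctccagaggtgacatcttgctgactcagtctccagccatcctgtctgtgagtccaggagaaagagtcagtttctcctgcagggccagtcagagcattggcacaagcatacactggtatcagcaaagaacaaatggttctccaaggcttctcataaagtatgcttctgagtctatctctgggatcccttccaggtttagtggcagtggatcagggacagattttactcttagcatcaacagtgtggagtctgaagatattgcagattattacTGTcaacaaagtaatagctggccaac
Ighv14-2: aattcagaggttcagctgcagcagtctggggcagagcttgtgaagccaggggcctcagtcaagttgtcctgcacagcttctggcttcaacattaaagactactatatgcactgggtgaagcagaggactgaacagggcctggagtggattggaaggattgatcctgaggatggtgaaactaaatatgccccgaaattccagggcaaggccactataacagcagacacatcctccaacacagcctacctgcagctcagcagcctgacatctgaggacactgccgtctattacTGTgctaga
Igkv1-117: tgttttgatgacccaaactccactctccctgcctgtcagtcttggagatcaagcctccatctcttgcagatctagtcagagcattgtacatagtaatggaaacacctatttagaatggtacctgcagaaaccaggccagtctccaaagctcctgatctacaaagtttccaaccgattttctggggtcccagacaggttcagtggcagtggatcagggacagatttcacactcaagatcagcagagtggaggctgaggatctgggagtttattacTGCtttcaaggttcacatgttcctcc
Iglv1: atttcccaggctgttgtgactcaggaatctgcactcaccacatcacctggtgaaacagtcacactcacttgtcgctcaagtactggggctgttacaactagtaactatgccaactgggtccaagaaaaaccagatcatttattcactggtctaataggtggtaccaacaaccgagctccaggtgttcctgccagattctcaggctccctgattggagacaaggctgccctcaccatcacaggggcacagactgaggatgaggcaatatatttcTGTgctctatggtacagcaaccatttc

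On GRCm38 these stretches lie at chr12:114708648-114708947 (Ighv1-19, minus strand), chr6:70260409-70260706 (Igkv6-23, minus), chr12:114523441-114523740 (Ighv10-3, minus) and chr6:68862265-68862564 (Igkv1-88, minus). The others lie at chr12:114288152-114288451 (Ighv3-6, minus), chr6:69726573-69726870 (Igkv5-48, minus), chr12:113994469-113994768 (Ighv14-2, minus), chr6:68121528-68121827 (Igkv1-117, plus) and chr16:19085017-19085316 (Iglv1, minus). In the heavy genes 6 or 8 bases of the exon followed the cysteine codon, in the kappa genes 23 and in Iglv1 24. Many V genes have a close copy. Among the 56 heavy and kappa genes called in at least 10 cells, the exon's identity to its nearest relative in the same locus ranged from 76.5% to 99.0% with a median of 95.4%, and for 31 genes it was at least 95%. Ighv1-19 was 96.1% identical to Ighv1-26, Ighv10-3 96.8% to Ighv10-1, Igkv1-117 96.8% to Igkv1-110, and Iglv1 97.0% to Iglv2. Reads from such pairs can be split or dropped when they are aligned, so values of close copies are uncertain.

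V gene RNA was concentrated in the plasma cell-like clusters. All V genes summed stood at 8333 CPM (8247 to 8420) in the plasma cell-like cells of ApcMin and 5874 (5790 to 5960) in those of VApcMinL, and at 270.1 (252.9 to 288.3) and 364.7 (336.8 to 394.2) in the B cell-like cells. Empty droplets, summed over the barcodes of ranks 45000 to 90000, held 1359 and 1088 CPM, and barcodes without Cd79a and Mzb1 held 17.5 and 32.0. The 3′ kit reads RNA near its tail, and the V exon lies at the other end of the antibody transcript. In plasma cell-like cells with a kappa call, the called Igkv gene had a median of 6.82 UMIs per 1000 UMIs of the kappa constant gene Igkc in ApcMin and 4.80 in VApcMinL. For heavy calls against Igha, the constant gene of IgA, the medians were 12.4 and 9.57. These medians leave out cells with fewer than 5 UMIs of the gene, which can raise them, and to a different extent in each library.

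A V gene was called in a cell when it had at least 5 UMIs and made up at least 50% of the cell's UMIs of that locus. An Ighv gene was called in 485 ApcMin cells, 27.2% (25.2 to 29.3) of those selected, and in 504 VApcMinL cells, 26.8% (24.8 to 28.8). In the plasma cell-like cells the share was 80.04% (76.4 to 83.3) in ApcMin and 55.6% (51.8 to 59.4) in VApcMinL, whose plasma cell-like cells had a median of 3943 UMIs against 6661.5 in ApcMin. After thinning to 2000 UMIs, at which all selected cells could be kept, a heavy gene was called in 13.0% and 12.3% of the selected cells and a kappa gene in 20.3% and 14.0%. These thinned shares are over all selected cells and do not give the plasma cell-like cells on their own. B cell-like cells were rarely called, 3 of 658 and 6 of 353 for the heavy chain. Of all heavy-called cells, 88.5% and 75.6% lay in plasma cell-like clusters.

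**Figure D1:**
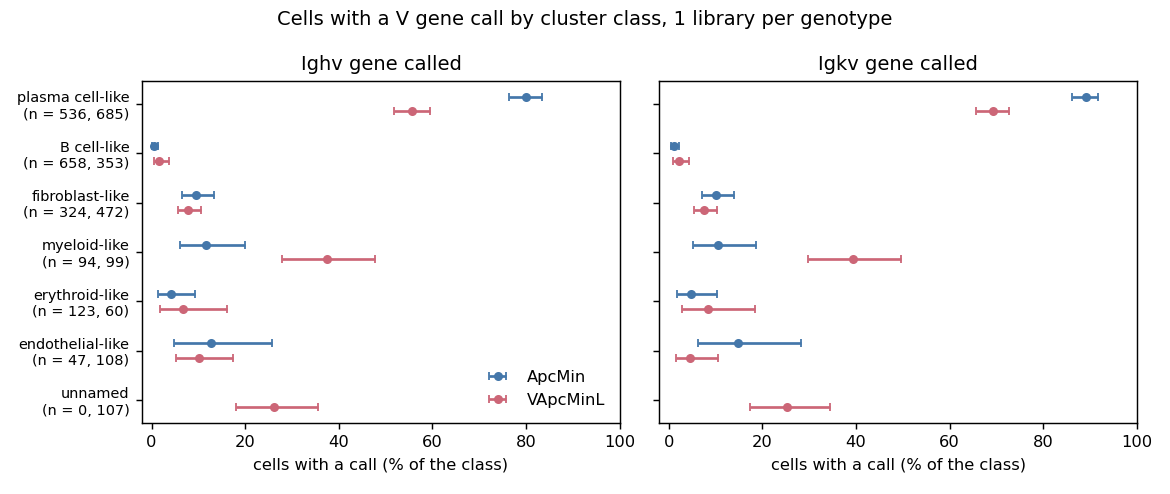
Share of cells with a heavy (left) or kappa (right) V gene call in each class of clusters, in percent of the class, for ApcMin (blue) and VApcMinL (red); each point is 1 library, with its 95% Clopper-Pearson interval as a bar. Plasma cell-like cells stand highest, at 80.04% and 55.6% for the heavy chain, and B cell-like cells lowest, at 0.456% and 1.70%.

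Calls were also made in cells of other classes. A heavy gene was called in 31 of 324 fibroblast-like cells of ApcMin and 37 of 472 of VApcMinL. In myeloid-like cells the counts were 11 of 94 and 37 of 99, and the VApcMinL cells of that class had a median of 712 Igkc UMIs, against 23 in ApcMin. An unnamed VApcMinL cluster of 47 cells, led by Siglech and Ccr9 by summed fold and by Jchain and Sec11c by the mean log level, held 27 heavy calls. Whether free RNA or droplets with more than 1 cell had a part in these calls was not tested. In barcodes without Cd79a and Mzb1 a heavy gene was called in 4 of 5256 and 19 of 5515. Among the plasma cell-like cells alone, the share of each named gene stayed within the interval it had over all selected cells.

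Within a cell, 1 heavy gene held nearly all of the locus. Among the 496 and 521 cells with at least 5 Ighv UMIs, the top gene had a median share of 100% in both libraries and a 10th percentile of 85.7% in ApcMin and 81.8% in VApcMinL. In 79.6% and 78.3% of them no other Ighv gene had a UMI. A second Ighv gene with at least 5 UMIs and 20% of the locus was seen in 15 ApcMin and 11 VApcMinL cells, with medians of 14245 and 9465 UMIs against 7652 and 5190.5 in the others. The Igkv genes showed the same picture when taken alone, with medians of 100% and 10th percentiles of 85.7% and 71.4%. Over Igkv and Iglv together the median fell to 69.5% (67.3 to 71.4) in ApcMin and 66.7% (65.1 to 69.2) in VApcMinL, where Iglv1 UMIs lay beside those of the Igkv gene.

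UMIs of a gene were also sought in the cells called for another gene of its locus. For the 204 Ighv and Igkv genes with a UMI in the selected cells, the share of such cells that held a UMI of the gene, taken in the library where it was higher, had a median of 0.206% over genes. It was 0 for 66 genes and passed 1% for 25 and 5% for 1. That gene was Igkv1-117, with a UMI in 25 of 491 such ApcMin cells (5.09%), 18 of them called for its close copy Igkv1-110. Ighv1-55 UMIs likewise lay in 8 of the 12 ApcMin and 20 of the 28 VApcMinL cells called for Ighv1-53, a gene 95.1% identical to it. Igkv3-1 was found in 27 called cells of each library at a median of 1 UMI and was called in none.

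In all, 73 of the 115 Ighv genes and 66 of the 100 Igkv genes not annotated as pseudogenes were called in at least 1 cell of either library, counting Igkv genes taken alone. Another 20 Ighv and 20 Igkv genes had UMIs but no call, and 22 and 14 had no UMI. Of the 70 Ighv and 60 Igkv pseudogenes, 1 was called, Ighv1-2 in 1 cell, and 58 and 47 had no UMI. Ighv5-8 and Ighv1-13 each stand on 2 identifiers and were kept apart.

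The heavy genes used most differed between the libraries. Ighv3-6 led in ApcMin with 57 of 485 called cells, 11.8% (9.02 to 14.96), and came after Ighv1-19 and Ighv10-3 in VApcMinL with 35 of 504, 6.94% (4.88 to 9.53). Ighv1-19 led in VApcMinL with 58 cells, 11.5% (8.86 to 14.6), and was called in 9 ApcMin cells, 1.86% (0.852 to 3.49). Ighv10-3 followed with 57 VApcMinL cells, 11.3% (8.68 to 14.4), against 8 ApcMin cells, 1.65% (0.715 to 3.22). The ratio of the VApcMinL share to the ApcMin share was 6.20 (3.05 to 14.2) for Ighv1-19, 6.86 (3.25 to 16.6) for Ighv10-3 and 0.591 (0.376 to 0.916) for Ighv3-6. These intervals take each cell as a separate draw, and they do not test a difference between the genotypes.

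The other leading heavy genes varied in how far the libraries differed. Ighv1-82 was called in 5.77% (3.87 to 8.24) of ApcMin and 4.96% (3.24 to 7.24) of VApcMinL heavy-called cells, a ratio of 0.859 (0.480 to 1.53). Ighv1-55 was called in 3.51% (2.05 to 5.55) and 3.17% (1.83 to 5.10), a ratio of 0.906 (0.428 to 1.91). Ighv1-53, at 2.47% and 5.56%, had a ratio of 2.25 (1.11 to 4.85), and Ighv1-39, at 1.86% and 4.76%, a ratio of 2.57 (1.15 to 6.27). Ighv1-76 (27 cells against 5), Ighv1-54 (26 against 5) and Ighv5-17 (22 against 6) were more frequent in ApcMin.

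Among heavy genes called in at least 10 cells, the ratio of the VApcMinL share to the ApcMin share was highest for Ighv1-66 at 24.1 (25 cells against 1), Ighv2-3 at 10.6 (11 against 1) and Ighv10-3 at 6.86. It was lowest for Ighv8-12, Ighv1-15 and Ighv14-2. Ighv8-12 was called in 21 ApcMin cells and 0 of 504 VApcMinL cells, which allows a share of up to 0.595% at a floor of 3 counts. At that floor its share was 7.27-fold lower there, and the counting interval of the ratio reached up to 0.185. Ighv1-15 was called in 19 ApcMin and 2 VApcMinL cells, a ratio of 0.101, and Ighv14-2 in 23 and 4, a ratio of 0.167. These genes were picked for their ratios, so the ratios are a description.

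**Figure D2:**
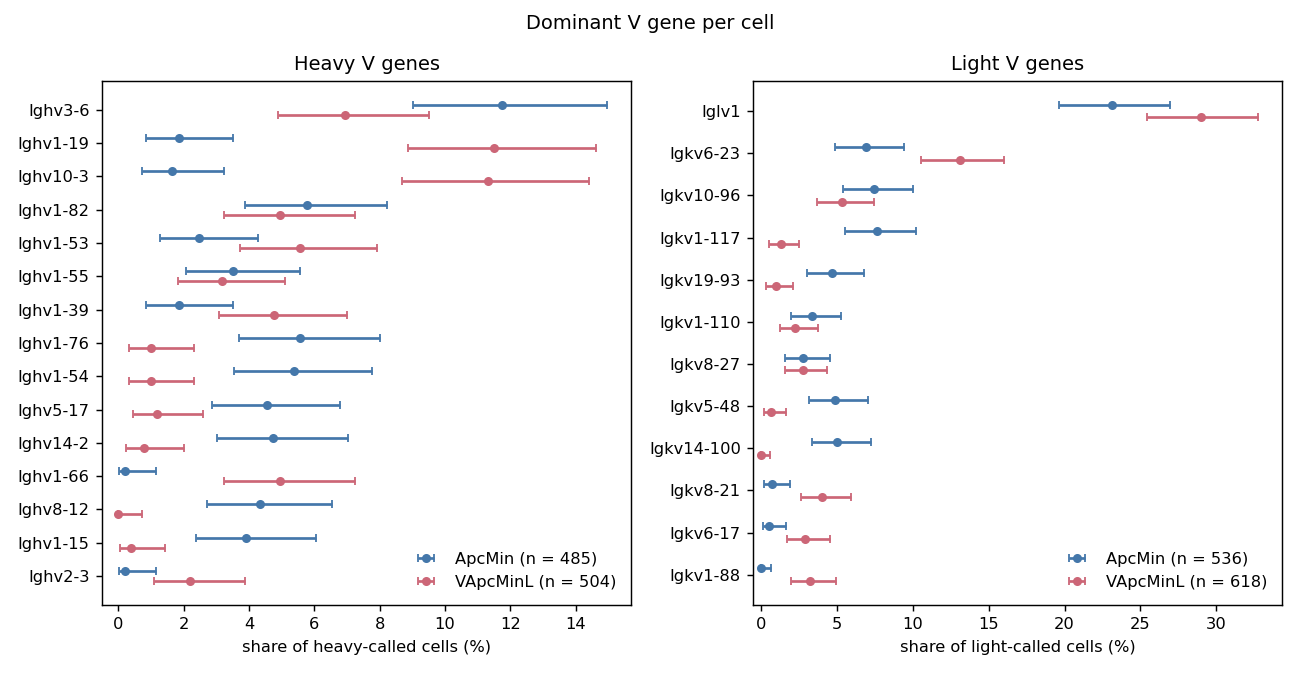
Share of heavy-called (left) and light-called (right) cells whose called V gene is the one named, in percent, for ApcMin (blue) and VApcMinL (red); bars show 95% Clopper-Pearson intervals. Light calls are over Igkv and Iglv pooled and differ from the kappa calls over Igkv alone. Ighv1-19 and Ighv10-3 stand above 11% in VApcMinL and below 2% in ApcMin, while the intervals of Ighv1-82 and of Ighv1-55 overlap widely.

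By family, the Ighv1 genes, the largest group of the locus with 93 listed members, held 50.5% (46.0 to 55.1) of heavy-called ApcMin cells and 60.9% (56.5 to 65.2) of VApcMinL cells. The Ighv3 family held 12.0% and 7.94%, most of it Ighv3-6. Ighv5 held 9.48% (7.03 to 12.4) and 3.77% (2.28 to 5.82), Ighv14 6.19% (4.21 to 8.71) and 2.38% (1.24 to 4.12), and Ighv10 2.89% (1.59 to 4.80) and 11.9% (9.21 to 15.1). The 16 listed Ighv8 genes were called in 26 ApcMin cells and in 0 VApcMinL cells. Along chromosome 12 the called genes were spread over the locus. Their median distance from Ighj1, the J gene at its near end, was 1.23 Mb in ApcMin cells and 1.28 Mb in VApcMinL cells, beside 1.18 Mb over the 115 Ighv genes themselves.

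Among kappa genes taken alone, a call was made in 541 ApcMin and 594 VApcMinL cells. Igkv6-23 was called in 50 and 125 of them, the latter 21.04% (17.8 to 24.5). Igkv10-96 was called in 57 and 43, Igkv1-117 in 50 and 9, and Igkv19-93 in 38 and 7. Igkv14-100 was called in 33 ApcMin cells and in 0 VApcMinL cells, and Igkv1-88 in 0 and 22. Igkv5-48 stood at 35 and 5 cells, Igkv8-21 at 5 and 35, and Igkv6-17 at 5 and 22. Igkv1-110 (21 and 22 cells), Igkv8-27 (18 and 21) and Igkv5-43 (15 and 15) were called in like numbers of cells.

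When Igkv and Iglv were pooled, 536 and 618 cells were called. Igkv6-23 then held 6.90% (4.91 to 9.39) in ApcMin and 13.1% (10.5 to 16.03) in VApcMinL, Igkv1-117 7.65% (5.54 to 10.2) and 1.29% (0.560 to 2.53), and Igkv10-96 7.46% (5.38 to 10.02) and 5.34% (3.70 to 7.42). Their ratios were 1.90 (1.27 to 2.88) for Igkv6-23, 0.169 (0.0685 to 0.366) for Igkv1-117 and 0.716 (0.437 to 1.16) for Igkv10-96. In pooled calls Iglv1 UMIs count toward the 50% limit, also in cells that have a kappa gene. Igkv6-23 was called in 37 ApcMin and 81 VApcMinL cells when pooled, against 50 and 125 when Igkv was taken alone. The pooled shares and ratios are therefore not those among kappa calls. Taking 3 cells of the library at 0 as the floor, Igkv14-100 was 10.4-fold lower in VApcMinL and Igkv1-88 5.78-fold higher. The counting interval of the ratio reached up to 0.127 for Igkv14-100 and down to 4.28 for Igkv1-88. By family, Igkv6 held 15.2% (12.2 to 18.5) of the kappa-called ApcMin cells and 31.8% (28.1 to 35.7) of the VApcMinL cells. Igkv14 held 7.02% (5.02 to 9.51) and 0.673% (0.184 to 1.72), and Igkv12 2.96% (1.70 to 4.76) and 8.25% (6.16 to 10.8).

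Iglv1, and at lower counts Iglv3, differed from the Ighv and Igkv genes in being read across cells of another light chain. Iglv1 was the light gene called most often, in 124 ApcMin cells, 23.1% (19.6 to 26.9) of the light calls, and 179 VApcMinL cells, 29.0% (25.4 to 32.7). Yet 106 of the 124 and 168 of the 180 Iglv-called cells had more UMIs of Igkc than of the lambda constant genes Iglc1, Iglc2 and Iglc3 together, and 91 and 110 of them also had a kappa call. Judged by their constant genes, lambda cells were few. Of the plasma cell-like cells with at least 100 light constant UMIs, 18 of 531 in ApcMin, 3.39% (2.02 to 5.30), and 11 of 678 in VApcMinL, 1.62% (0.813 to 2.88), had at least as many Iglc as Igkc UMIs.

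In the lambda cells Iglv1 accompanied its constant gene. They had a median of 32.5 Iglv1 UMIs and 2040 Iglc1 UMIs in ApcMin, and 11 and 1505 in VApcMinL, with a median of 0 Igkv UMIs in both. In the plasma cell-like cells where Igkc was above Iglc, an Iglv1 UMI was found in 467 of 513 ApcMin cells, 91.0% (88.2 to 93.4), and 541 of 667 VApcMinL cells, 81.1% (77.9 to 84.0), with medians of 8 and 3 Iglv1 UMIs beside 3 and 2 Iglc1 UMIs. The lambda cells thus had far more Iglc1 than Iglv1 UMIs, and the kappa cells had fewer Iglc1 than Iglv1 UMIs at the median. Iglc2, however, had medians of 9 and 4 UMIs in these kappa cells, above those of Iglv1, and of 5 and 8 in the lambda cells.

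This Iglv1 RNA was not spread evenly over cell types. Its level was 1901 CPM in the kappa plasma cell-like cells of ApcMin and 1429 CPM in those of VApcMinL, 25.7 and 51.9 CPM in B cell-like cells and 98.6 and 178.7 CPM in the other selected cells, and an Iglv1 UMI was found in 7.14% and 12.5% of B cell-like cells. Empty droplets held 389.0 and 424.0 CPM. Iglv3 had UMIs in 313 and 227 of the kappa plasma cell-like cells but was called in 0 and 1 cells, and Iglv2 had 16 and 23 UMIs in all selected cells and no call. The gene 2010309G21Rik, annotated across from the lambda V genes, had 27 and 13 UMIs in plasma cell-like cells, where Iglv1 had 8354 and 4501. The counts do not show where in Iglv1 its reads lie, and the cause of the Iglv1 UMIs in kappa cells was not tested.

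**Figure D3:**
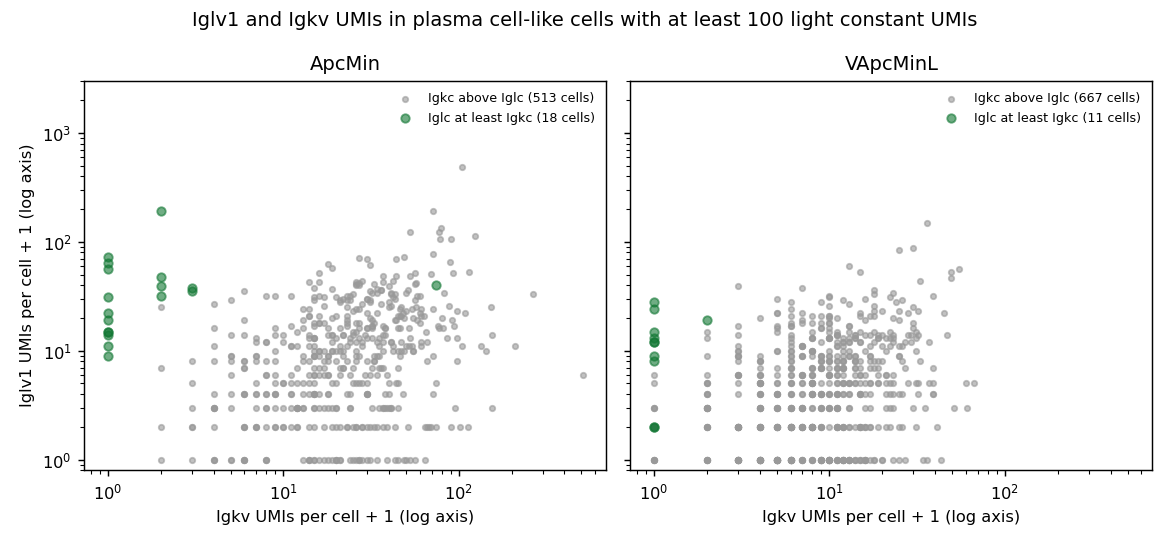
Iglv1 UMIs against the sum of Igkv UMIs in each plasma cell-like cell with at least 100 light constant UMIs, both plus 1 on log axes, for ApcMin (left) and VApcMinL (right); grey cells had more Igkc than Iglc UMIs and green cells at least as many Iglc as Igkc UMIs. Most grey cells lie above the floor of the Iglv1 axis, with Iglv1 UMIs in 91.0% and 81.1% of them.

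Usage was spread over many genes in both libraries. A heavy gene was called from 67 genes in ApcMin and 54 in VApcMinL, or 53.7 expected at 485 cells in each. The inverse Simpson number, the count of equally used genes that would give the same chance that 2 cells share a gene, was 25.6 for heavy genes in ApcMin and 20.2 in VApcMinL. The 10 most used heavy genes held 52.0% and 59.3% of the cells. For kappa genes alone there were 57 and 54 genes, inverse Simpson numbers of 19.8 and 14.6, and 62.1% and 59.1% of cells in the top 10. Of the heavy genes called, 47 were called in both libraries, 70.1% of those in ApcMin and 87.0% of those in VApcMinL. Adding up the smaller of the 2 shares for each gene, 50.8% of heavy usage and 58.8% of kappa usage was common to the libraries. Across the 74 heavy genes called in either library, which share a locus and an aligner, the shares had a Pearson r of 0.37 and a Spearman rho of 0.40.

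**Figure D4:**
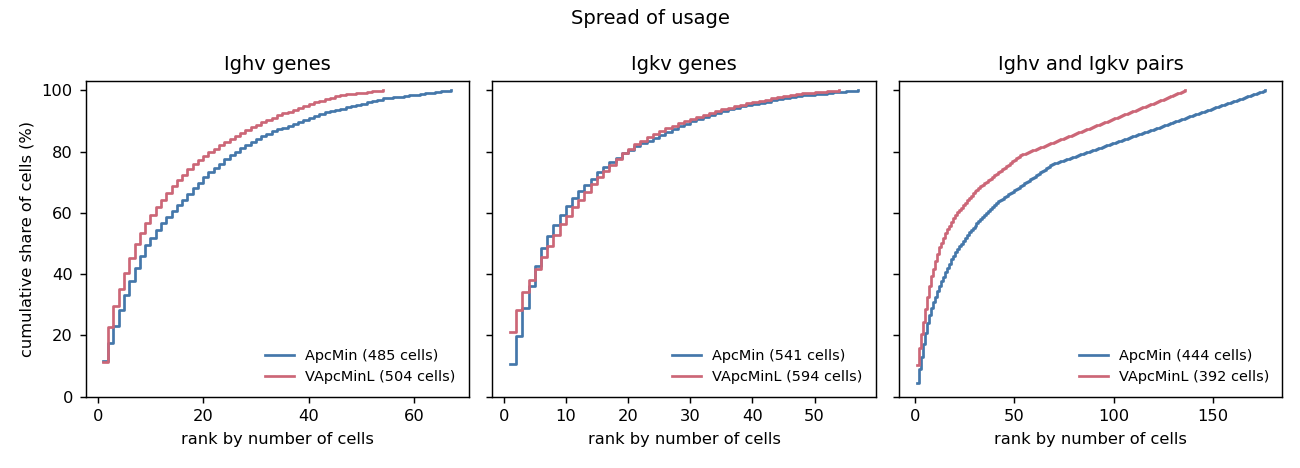
Cumulative share of cells, in percent, held by the genes or pairs ranked by their number of cells, for heavy genes, kappa genes and heavy and kappa pairs, in ApcMin (blue) and VApcMinL (red). The heavy and pair curves of VApcMinL rise above those of ApcMin, and the kappa curves lie close to each other after the first genes.

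Heavy and light V genes came in repeated combinations. Both an Ighv and an Igkv gene were called in 444 ApcMin cells, which held 176 different pairs, and in 392 VApcMinL cells, which held 136. A pair seen in at least 2 cells accounted for 337 of the ApcMin cells, 75.9% (71.6 to 79.8), and 309 of the VApcMinL cells, 78.8% (74.4 to 82.8). Pairs seen in at least 5 cells numbered 21 and 18 and held 48.2% and 57.1% of the paired cells. Of these cells 444 and 391 had Igha as their top heavy constant gene. Over all heavy-called cells it was 485 of 485 and 502 of 504, with Ighm on top in 1 of the remaining 2 and an Ighg gene in the other. Igha was also the top heavy constant gene in 88.3% of the cells of fibroblast-like cluster 2 of ApcMin and 97.3% of that of VApcMinL. Empty droplets held 27773 and 33225 CPM of it. Igha on top therefore does not by itself give a cell's own isotype.

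The largest pair was Ighv1-19 with Igkv6-23, found in 41 VApcMinL cells, 10.5% (7.61 to 13.9) of those paired, and in 7 ApcMin cells, 1.58% (0.636 to 3.22). In the VApcMinL cells it had 5 to 52 UMIs of Ighv1-19 with a median of 12 and 5 to 41 of Igkv6-23 with a median of 11, and 30 of the 41 lay in the plasma cell-like cluster. The second was Ighv1-39 with Igkv6-23, in 15 VApcMinL and 8 ApcMin cells. Both pairs were thus present in the 2 libraries. The next pairs leaned to 1 library: Ighv10-3 with Igkv1-88 was found in 22 VApcMinL cells and 0 of 444 ApcMin cells, which allows a share of up to 0.676%. Ighv14-2 with Igkv1-117 was found in 20 ApcMin and 2 VApcMinL cells, and Ighv3-6 with Igkv5-48 in 20 and 1.

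Over both libraries 25 pairs were shared, 14.2% of the different ApcMin pairs and 18.4% of the VApcMinL pairs. These shared pairs held 117 ApcMin and 120 VApcMinL cells. Of the different pairs, 69 of 176 in ApcMin and 53 of 136 in VApcMinL were seen in at least 2 cells. The others were seen in a single cell and are easily missed in the other library. The overlap that such sampling alone would give was not worked out. Common usage, as summed above for genes, came to 12.1% for pairs. Ighv1-54 with Igkv10-96 and Ighv8-12 with Igkv14-100 (18 cells each), Ighv1-15 with Igkv6-23 (17) and Ighv1-76 with Igkv19-93 (14) were found in ApcMin and in 0 VApcMinL cells. Ighv1-82 with Igkv6-23 (17 cells), Ighv1-31 with Igkv10-96 (16) and Ighv3-6 with Igkv6-23 (15) were found in VApcMinL and in 0 ApcMin cells. These pairs were named after their counts were seen. Since 0 of 392 cells allows a share of up to 0.765%, rare use of such pairs was not detectable at this depth.

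**Figure D5:**
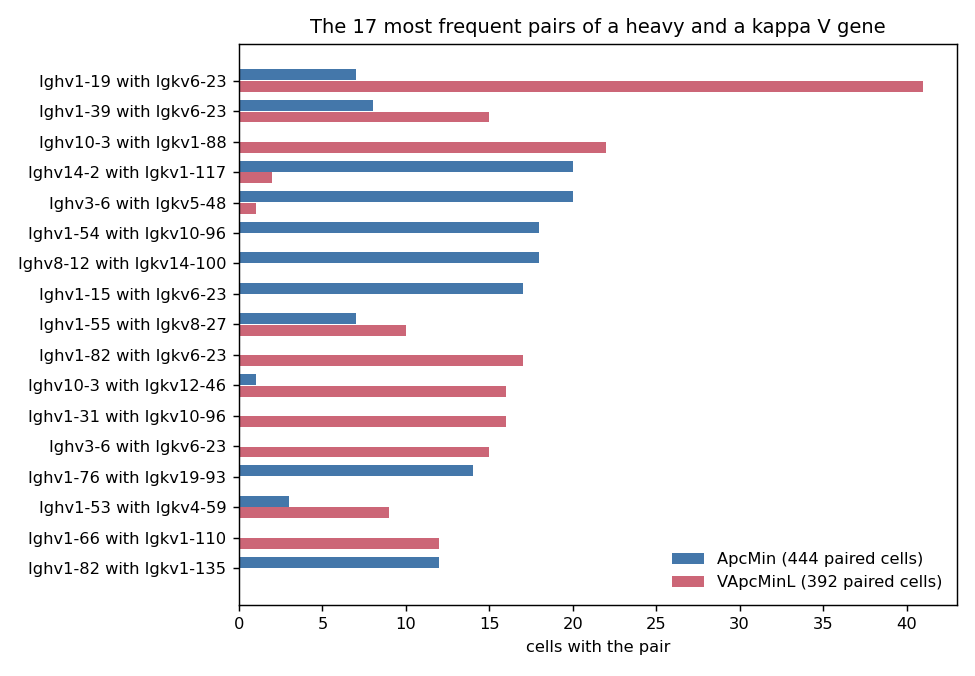
Number of cells with each of the 17 most frequent pairs of a called heavy and a called kappa V gene in ApcMin (blue, 444 paired cells) and VApcMinL (red, 392 paired cells). Ighv1-19 with Igkv6-23 reaches 41 cells in VApcMinL and 7 in ApcMin, and most of the others are found mainly in 1 library.

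A heavy gene was often tied to 1 kappa gene. Of the heavy genes with at least 8 paired cells, 14 of 21 in ApcMin and 12 of 16 in VApcMinL had a single kappa gene in at least 50% of their cells. The share of that kappa gene in the other paired cells varied. It reached 11.7% in ApcMin (Igkv10-96, for Ighv4-1) and 22.7% in VApcMinL (Igkv6-23, for Ighv3-6). Ighv14-2 went with Igkv1-117 in 20 of 22 ApcMin cells, 90.9% (70.8 to 98.9), against 24 of the 422 other paired cells, 5.69% (3.68 to 8.34). Ighv8-12 went with Igkv14-100 in 18 of 21, 85.7% (63.7 to 97.0), against 2 of 423 others. Ighv9-2 went with Igkv1-117 in 9 of 9, against 35 of 435 others. In VApcMinL, all 10 paired Ighv2-3 cells had Igkv8-21, against 6 of the 382 others. All 17 Ighv1-82 cells had Igkv6-23, against 81 of 375 others (21.6%). Igkv10-96 was in 16 of 18 Ighv1-31 cells and in 13 of 374 others. Whether cells that share a pair descend from 1 B cell cannot be read without the junction. The intervals given for shares and ratios take each cell as a separate draw, and where cells are of 1 descent they are too narrow.

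Ighv3-6 went with more kappa genes than any other heavy gene of at least 8 paired cells in either library. Its 52 paired ApcMin cells held 12 different kappa genes, with Igkv5-48 in 20, Igkv17-121 in 9 and Igkv10-94 in 8. Its 27 paired VApcMinL cells held 9, with Igkv6-23 in 15. These counts are not adjusted for the number of cells. Ighv1-26 held 7 kappa genes in 9 paired ApcMin cells and 8 in 12 of VApcMinL, whereas Ighv1-19 held 5 in 47 of VApcMinL. Wide pairing was thus not particular to Ighv3-6. Ighv10-3 changed partners between the libraries. In VApcMinL its 46 paired cells went with Igkv1-88 in 22, Igkv12-46 in 16 and Igkv6-23 in 1, whereas in ApcMin 6 of its 8 went with Igkv6-23. Ighv1-82 went with Igkv1-135 in 12 of 26 ApcMin cells and with Igkv6-23 in all 17 of VApcMinL.

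Igkv6-23 was the kappa gene with most paired cells in VApcMinL, and its heavy partners differed between the libraries. In ApcMin its 43 paired cells held Ighv1-15 (17), Ighv1-39 (8), Ighv1-19 (7), Ighv10-3 (6), Ighv14-3 (4) and Ighv1-74 (1). In VApcMinL its 98 held 9 heavy genes, led by Ighv1-19 (41), Ighv1-82 (17), Ighv3-6 (15), Ighv1-39 (15) and Ighv1-59 (5). Ighv1-19 and Ighv1-39 used it in both libraries, at 77.8% (40.0 to 97.2) and 88.9% (51.8 to 99.7) of their paired ApcMin cells and 87.2% (74.3 to 95.2) and 65.2% (42.7 to 83.6) of their VApcMinL cells. Their V exons were 92.5% identical. The identities among Ighv1-15, Ighv1-19, Ighv1-39 and Ighv1-82 ranged from 82.6% to that value, and those of the 4 to Ighv3-6 and Ighv10-3 from 56.4% to 61.2%, so the partners of Igkv6-23 were not all alike in sequence.

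Heavy calls were also made in lambda cells. Of the 18 ApcMin plasma cell-like cells with at least as many Iglc as Igkc UMIs, 12 had a heavy call from 7 genes, led by Ighv4-1 and Ighv1-53 with 3 each. Of the 11 VApcMinL cells 7 had a call from 5 genes, led by Ighv9-4 with 3. Iglc1 made up most of the lambda constant UMIs in 16 and 10 of these cells. The numbers are too small to compare with the kappa cells.

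B cell-like cells, which carry IgM and IgD on their surface, had little V RNA per cell. Their Ighv UMIs numbered 401 in the 658 ApcMin cells and 321 in the 353 VApcMinL cells, with a median of 0 per cell. Ighv1-81 took a large part of them, a gene singled out after its values were seen. It had a UMI in 95 ApcMin cells, 14.4% (11.8 to 17.4), and 61 VApcMinL cells, 17.3% (13.5 to 21.6), and made up 31.2% and 27.1% of their Ighv UMIs. In plasma cell-like cells it had a UMI in 8 of 536 and 18 of 685, which made up 0.573% and 1.44% of the Ighv UMIs. In empty droplets its part was 1.57% and 3.03%. The B cell-like cells held at most 4 and 7 Ighv1-81 UMIs, and it was called in 0 and 1 of them.

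In B cell-like cells the inverse Simpson number of the detections was 29.2 and 29.0 for Igkv genes, whose most detected members, Igkv19-93 in 13 ApcMin cells and Igkv10-96 in 7 VApcMinL cells, took 6.99% and 7.29% of the detections. For all Ighv genes it was 6.30 and 6.33, with Ighv1-81 itself at 38.6% and 38.1% of the detections. In plasma cell-like cells the same number for Ighv genes was 32.2 and 22.99, and the most detected genes, Ighv3-6 and Ighv1-53, took 8.58% and 8.85% of the detections. Ighm and Ighd, the constant genes of IgM and IgD, had UMIs in 98.0% and 90.0% of the ApcMin and 96.3% and 90.9% of the VApcMinL B cell-like cells. Igha had UMIs in 97.4% and 99.4% of the B cell-like cells, at 3592 and 9072 CPM against 1992 and 1622 for Ighm. The part of free RNA in these values was not tested.

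The V genes that mark phosphatidylcholine-binding B-1 cells, a self-renewing B cell subset of the body cavities, were near absent. Ighv11-2, Ighv12-3 and Igkv4-91 were called in 0 cells of either library, which allows shares of up to 0.619% and 0.595% for a heavy gene. Igkv14-126 was called in 1 ApcMin and 2 VApcMinL cells.

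Of the 12 antibody constant genes, 11 had UMIs and Ighe, the constant gene of IgE, had 0 in every class. Igkc stood at 449020 CPM in plasma cell-like cells of ApcMin and 467494 in those of VApcMinL, and Igha at 173867 and 224119. Jchain, which joins IgA into dimers, had a UMI in every plasma cell-like cell. The genes of V gene recombination and of the surrogate light chain were found in few cells. Rag1, a subunit of the recombinase, had 48 UMIs in 11 ApcMin cells and 59 in 14 VApcMinL cells, of which 0 lay in plasma cell-like cells of either library and 1, of ApcMin, in a B cell-like cell. In VApcMinL 51 of the 59 lay in a 14-cell cluster that Rag1, Vpreb1 and Igll1 led, and that cluster held 0 heavy and 0 kappa calls. Dntt, which adds bases at the junction, had 76 and 20 UMIs. Vpreb3, in contrast, had a UMI in 428 of 658 and 247 of 353 B cell-like cells.

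V genes differed in how much RNA was read per constant gene. Ighv4-1 had a median of 54.8 UMIs per 1000 Igha UMIs in 9 ApcMin plasma cell-like cells and Ighv8-12 had 5.79 in 18. Ighv3-6 stood at 22.6 (quartiles 15.3 to 31.6) in 51 ApcMin cells and 9.66 (8.01 to 14.2) in 27 VApcMinL cells. Igkv5-43, the highest in ApcMin of the kappa genes with at least 8 such cells in both libraries, stood at 17.9 (16.6 to 26.0) UMIs per 1000 Igkc UMIs there and at 8.07 (4.92 to 10.3) in VApcMinL. Over the 12 kappa genes of that kind the medians ranged from 5.15 to 17.9 in ApcMin and from 3.08 to 8.32 in VApcMinL. A call needs 5 UMIs, so the shares given above also depend on how well each gene is read. The medians per constant gene are likewise from called cells alone and leave out cells with few UMIs of the gene.

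Set beside the rest of the transcriptome, V genes differed widely between the libraries. Over the selected cells, 116 V genes had at least 50 UMIs in both libraries together, and 25 of them (21.6%) were at least 2-fold higher in CPM in VApcMinL, against 11.1% of all 13178 genes past that limit. At least 2-fold lower were 51 (44.0%), against 2.26% of all genes. The median absolute log2 ratio was 1.96 for those V genes and 0.29 for all genes. In the plasma cell-like cells alone 22 of 107 V genes were at least 2-fold higher, against 1.49% of 3956 genes, and 50 at least 2-fold lower, against 18.3%. All V genes summed were also lower in VApcMinL, at 1673 CPM against 2550 in ApcMin over the selected cells. In plasma cell-like cells the sums were 5874 and 8333 CPM. The counts of higher and lower V genes are not adjusted for that. A V gene passes the limit through a few cells of 1 library that carry it, and such a gene must then differ, so these counts describe the libraries and do not test the genotype.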

How the data were processed

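Droplet 3′ RNA-seq libraries of sorted lamina propria cells were used, 1 per genotype. The authors deposited raw UMI counts per gene and barcode for all droplets, without cell calling or normalization. The file headers name Cell Ranger 3.1.0, and the methods and processing notes name Cell Ranger 2.1.1 and GRCm38 (mm10). Counts were read as deposited. Each selected cell had at least 2000 UMIs, at most 20% mitochondrial UMIs and at least 1 UMI of Cd79a or Mzb1. No doublet caller was run. A V gene was called from at least 5 UMIs that made up at least 50% of the locus, with Igkv and Iglv pooled for light calls. Kappa calls over Igkv alone were added after the data were seen. Selected cells were clustered per library without antibody and mitochondrial genes (2000 variable genes, 20 components, 20 neighbours, Leiden at resolution 0.3, leidenalg 0.10.2, scikit-learn 1.9.0). A cluster was named when exactly 1 class had at least 3 of its markers among the top 10 genes by summed fold or by mean log level, a rule set after the clusters were seen. Empty droplets were the barcodes of ranks 45000 to 90000.

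The members, gene lists and tests were chosen with earlier results of these data known. Named genes were, per chain, the 10 with the highest mean share over both libraries, the 3 highest and 3 lowest ratios among genes called in at least 10 cells, all Iglv genes, 4 B-1 cell genes and the 5 largest pairs. Shares have Clopper-Pearson and CPM Poisson intervals (95%), from scipy 1.17.1. A count of 0 was bounded at 3 counts. V exons and identities came from GENCODE vM21. The calling rule was run on simulated cells that had a known heavy and a known light V gene or none, plus free V RNA. The simulation held no reads split between close copies and no droplets shared by cells. It also held no Iglv1 beyond free RNA in cells of another light gene, so these cases were not tested. The alternatives were other limits on calls, UMIs and mitochondrial share, clusters alone, thinning to 2000 UMIs and leaving out pseudogenes. Software was Python 3.11.15 with numpy 2.4.6, pandas 2.3.3 and matplotlib 3.10.9.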

Additional observations from a re-analysis of the deposited data

How the results depend on the processing

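Of 218 values tried under an alternative, 162 stayed within the 95% interval of the reported value (counts of genes within 1.5 times) and 56 moved further. Of 686 values of single named genes and pairs, 651 stayed within that range and 35 moved. No paired analysis was possible because a single library stood for each genotype, and no replicate could be left out for the same reason. Values below give ApcMin first. With at least 3 UMIs of the top gene, heavy calls covered 31.0% and 34.9% of cells and light calls 38.7% in VApcMinL. With at least 10, heavy calls covered 20.4% and 13.3%, light calls 26.4% and 19.96%, and in VApcMinL repeated pairs held 71.2% of paired cells and Iglv genes 33.0% of light calls. With the top gene at 80% of the locus or more, light calls covered 10.9% and 11.4%, repeated pairs held 51.4% and 56.7%, Iglv genes 12.4% and 15.9%, Igkv1-117 fell to 5.15% in ApcMin and the inverse Simpson number of light genes was 15.3 in VApcMinL. With barcodes of at least 1000 UMIs, light calls covered 30.3% and V genes 1738 CPM in VApcMinL. With at least 5000, heavy calls covered 32.6% in ApcMin, light calls 34.1% and 28.5%, V genes stood at 2610.3 and 1334 CPM and repeated pairs at 66.3% and 72.1%. With at most 10% mitochondrial UMIs, V genes stood at 2587 and 1830.2 CPM. In plasma and B cell-like clusters alone, heavy calls covered 36.2% and 37.3%, light calls 40.5% and 48.5%, and V genes stood at 4784 and 3906 CPM. In plasma cell-like clusters alone, an alternative chosen after seeing the data, the values were 80.04% and 55.6%, 88.8% and 72.4%, and 8333 and 5874 CPM. Thinned to 2000 UMIs, heavy calls covered 12.96% and 12.3%, light calls 23.3% and 18.3%, repeated pairs held 61.0% and 64.8%, Ighv3-6 17.7% in ApcMin, Iglv genes 35.5% in VApcMinL, and the median light dominance was 72.2% in ApcMin. With Igkv genes alone, also chosen after seeing the data, that median was 100% and 100%, the inverse Simpson number 19.8 and 14.6, repeated pairs held 75.9% in ApcMin and Igkv6-23 21.04% in VApcMinL. With at least 200 UMIs, 1.48% of all genes were at least 2-fold lower. The order of the libraries in the share of light calls turned with at least 10 UMIs of the top gene, with barcodes of at least 5000 UMIs, after thinning and in plasma cell-like clusters alone, and that of heavy calls with at least 3 UMIs and in plasma and B cell-like clusters. The intervals given cover counting error alone and do not cover these shifts, whose cause was not tested.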
